A study of Mus musculus with 18 samples.

Results

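Oligodendrocytes make the myelin of the brain, and 9 genes that mark them were followed through the hypothalamus, pituitary and thyroid of mice whose thyroid hormone receptor β (THRB) carries the sumoylation-site mutation K146Q. The genes were chosen by name, as Mbp, Mog, Mag, Mobp, Cnp, Mal, Olig1, Olig2 and Sox10, and all 9 were found among the 24054 genes of each tissue's table. K146Q mice carried the mutation as a homozygous, single-nucleotide knock-in in every cell of the body. WT mice were of the same strain, written C57BL/Ntac in the sample labels and C57BL/NTC in the paper. All were untreated males of 3 months. Each tissue came from 3 WT mice, numbered 1, 2 and 43, and 3 K146Q mice, numbered 60, 62 and 83, which gives 18 RNA-Seq libraries in 6 groups of 3. A gene-level value cannot show a change of 1 base, so the genotype labels were not checked here. The libraries held from 14902330 to 21230050 reads, with a median of 18246157. Values are normalized CPM (reads scaled by the authors to an adjusted library size), and 3 reads correspond to 0.133 to 0.190 CPM depending on the library. The values of a library summed to between 896894 (hypothalamus of WT mouse 43) and 1269759 (thyroid of WT mouse 1), so they are not exact shares of its reads. Fold changes are on the scale of log2(CPM + 0.5), where changes of weakly expressed genes come out too small, and adjusted p-values are from limma with Benjamini-Hochberg adjustment over all genes tested in a tissue.

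Oligodendrocytes arise from precursor cells under the transcription factors Olig2, Olig1 and Sox10, and then wrap axons in membrane that is held compact by myelin basic protein (Mbp). Mobp is a further basic protein of the compact sheath, Mog and Mag are surface proteins on its outer and inner faces, Mal is a small membrane protein that carries lipids and proteins to the cell surface, and Cnp is a phosphodiesterase of the uncompacted cytoplasm. Thyroid hormone is known to time the step from precursor to myelinating cell, and Mbp is a classical thyroid hormone response gene of the developing brain. Outside the brain the same names have other sources. Schwann cells, the myelinating cells of peripheral nerves, use Mbp, Mag, Cnp and Sox10, the Mbp locus also gives transcripts without a role in myelin, and Mal is found in the apical membrane of many epithelia.

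The positions of 8 of the genes are given on GRCm38 from GENCODE M21. Mog lies at chr17:37010743-37023398 on the minus strand, Mag at chr7:30899176-30914873 on the minus strand and Mobp at chr9:120149707-120181484 on the plus strand. Cnp lies at chr11:100574904-100591729 on the plus strand and Mal at chr2:127633226-127656695 on the minus strand. Sox10 is at chr15:79154908-79165240 on the minus strand. Olig2, at chr16:91225457-91228677, and Olig1, at chr16:91269772-91271933, are neighbours on the plus strand with 41094 bases between them. Exons of Cnp share 154 bases with Dnajc7 on the other strand, which is 4.23% of the Cnp exons, and exons of Olig1 share 157 bases (7.26%) with the antisense transcript Gm15966. Whether the libraries kept strand is not stated, so reads in these stretches cannot be assigned to a strand.

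Promoter sequence was at hand for 6 of the 9 genes, as RefSeq windows of 300 bases on GRCm38.p6 that run from 250 bases before to 50 after a transcript's start. 3 are shown, cut to the bases ahead of both the RefSeq and the GENCODE start. Mobp was chosen for the largest difference between WT hypothalamus and WT thyroid on the fold-change scale. That scale shrinks differences of weakly expressed genes, so the choice is not a ranking by ratio. Mal was chosen for the smallest difference, and Cnp for its rise in the K146Q thyroid. Each is printed 5′ to 3′ on the strand of its gene, and capitals mark matches to the motifs searched.
Mobp promoter, chr9:120149492-120149706, plus strand: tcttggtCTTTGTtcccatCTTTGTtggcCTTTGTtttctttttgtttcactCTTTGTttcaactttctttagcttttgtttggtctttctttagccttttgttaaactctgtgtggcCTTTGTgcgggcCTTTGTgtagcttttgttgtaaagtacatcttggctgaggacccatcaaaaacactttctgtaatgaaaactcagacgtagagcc
Mal promoter, chr2:127656696-127656945, minus strand: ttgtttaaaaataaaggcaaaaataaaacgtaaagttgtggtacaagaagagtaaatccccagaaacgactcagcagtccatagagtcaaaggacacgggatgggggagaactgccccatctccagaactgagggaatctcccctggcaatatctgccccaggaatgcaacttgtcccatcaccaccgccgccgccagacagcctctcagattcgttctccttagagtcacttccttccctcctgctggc
Cnp promoter, chr11:100574689-100574903, plus strand: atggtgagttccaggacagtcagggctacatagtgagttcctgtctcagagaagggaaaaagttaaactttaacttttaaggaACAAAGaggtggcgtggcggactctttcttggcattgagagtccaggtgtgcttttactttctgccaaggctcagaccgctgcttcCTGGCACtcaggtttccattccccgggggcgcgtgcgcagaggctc

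The motifs searched, on both strands, were ACAAAG and AACAAT (cores of SOX binding sites), CTGGCAC (MYRF, the regulator of the mature oligodendrocyte), CAGCTG (an E-box), AGGTCA (the hexamer of nuclear receptor sites) and the DR4 element bound by thyroid hormone receptors, a direct repeat of that hexamer. ACAAAG occurs 6 times in the Mobp window, each time on the opposite strand, where it reads CTTTGT. In the Cnp window ACAAAG begins 167 bases and CTGGCAC begins 81 bases before the RefSeq start, and both motifs also occur in the Mag windows. The windows of Mal and Mog hold none of the motifs. Among all 32851 windows, 18.7% hold ACAAAG, 10.7% AACAAT, 5.01% CTGGCAC, 16.3% CAGCTG, 16.3% AGGTCA and 0.0152% the DR4 element. No window of the 6 genes holds the E-box, the nuclear receptor hexamer or the DR4 element, which says only that these letters are not in these bases.

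The tissues were first checked by the genes that define them. Pmch, the melanin-concentrating hormone precursor of the lateral hypothalamus, lay between 173 and 254 CPM in the hypothalamus libraries. Gh, growth hormone, lay between 62503 and 213048 CPM in the pituitary, and Tg, thyroglobulin, between 83869 and 357296 CPM in the thyroid. Tg was also listed in the other tissues, at 133 to 167 CPM in the hypothalamus and 120 to 170 CPM in the pituitary. With the genotypes pooled, the mean of Gh was 0.0851% of its pituitary level in the hypothalamus and 0.132% in the thyroid. The source of these low values was not tested.

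**Figure D1:**
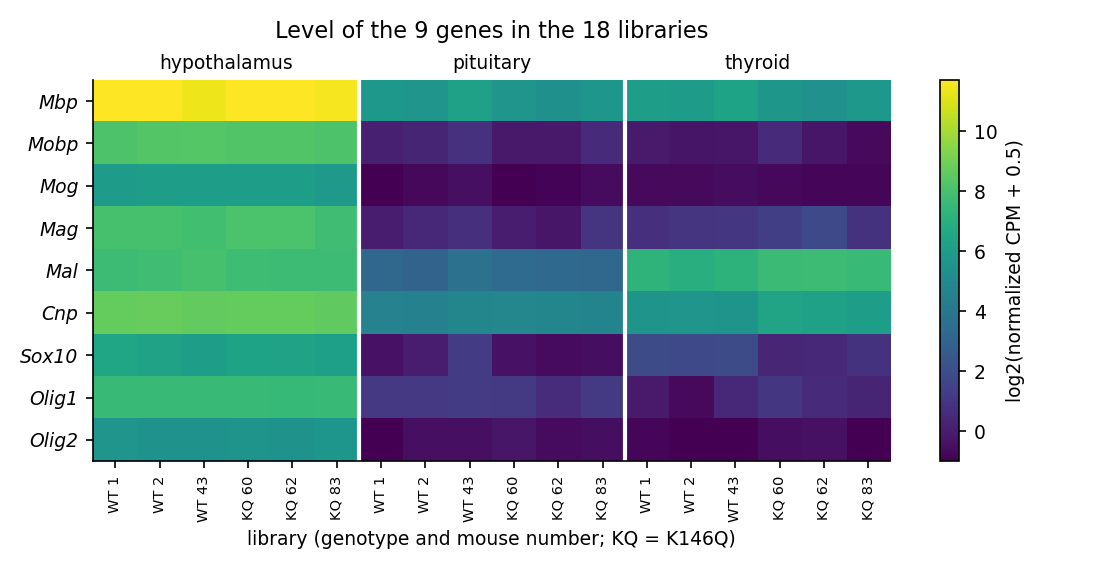
Heat map of log2(normalized CPM + 0.5) for the 9 genes (vertical axis) in the 18 libraries (horizontal axis, grouped by tissue, WT before K146Q). All 9 genes are brightest in the 6 hypothalamus libraries, and Mal lies between 124 and 208 CPM in the thyroid and 210 and 257 CPM in the hypothalamus, while Mobp lies between 0.117 and 0.942 CPM and 289 and 327 CPM; colours are not scaled by gene length, so genes should be compared along a row.

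In WT mice every one of the 9 genes was lower in pituitary and in thyroid than in hypothalamus (limma on the 18 libraries, where 73.0% and 81.9% of all genes differed between these pairs of tissues, and 35.9% and 40.0% were lower). Mog and Olig2 passed the filter of 0.5 CPM only through the hypothalamus, with at most 0.228 and 0.361 CPM in any pituitary or thyroid library. For Mog and Olig2 the lower level was thus fixed by the filter and adds nothing to the count. On the log2 scale used here, which shrinks differences of weakly expressed genes, the differences were smallest for Mal and Cnp and largest for Mobp. The place of Mobp holds for that scale only. With the genotypes pooled, pituitary Mog stood at 0.140% of its hypothalamus level, against 0.239% for Mobp. In the thyroid the order was the other way, with Mog at 0.167% and Mobp at 0.138%. Mal was lower in thyroid than in hypothalamus by -0.70 (95% interval -0.97 to -0.43) and Cnp by -3.11 (-3.27 to -2.94), while Mobp differed by -8.48 (-9.02 to -7.95). Between thyroid and pituitary 5 of the 9 genes differed, against 75.6% of all genes (37.0% higher and 38.6% lower). Mal was higher in thyroid by 3.8 (3.53 to 4.06), Sox10 by 1.62 (1.04 to 2.20) and Cnp by 0.90 (0.73 to 1.06), while Olig1 was lower by -1.24 (-1.73 to -0.76) and Mobp by -0.61 (-1.15 to -0.072). Mobp had 5 to 7 reads per WT thyroid library and 13 to 22 per WT pituitary library. Its percentages above stand beside 0.0851% and 0.132% for Gh in hypothalamus and thyroid, and the source of such low values was not tested. The Mobp call was lost with mouse number as a block (adjusted p = 0.0550, leaving 4 genes), without WT mouse 2 (0.122), WT mouse 43 (difference -0.40, 0.271) or K146Q mouse 62 (0.0582), and with quantile normalization (difference -0.31, 0.276).

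Per kilobase of exon (all GENCODE exons of a gene merged), Mbp led the WT hypothalamus at 367 ± 39.3 CPM per kb (SD, n = 3). Cnp followed at 114 ± 3.06, Olig1 at 90.6 ± 1.22 and Mal at 83.2 ± 8.61 CPM per kb. The ranges of Olig1 and Mal overlapped, so these neighbours in the order did not differ beyond their spread. Mag stood at 61.5 ± 4.27, Mobp at 45.6 ± 2.92 and Mog at 38.6 ± 1.26 CPM per kb, and the transcription factors Sox10 (26.1 ± 3.61) and Olig2 (18.6 ± 0.50) came last. In the WT thyroid the order was led by Mal at 51.2 ± 5.95 CPM per kb, ahead of Cnp (13.1 ± 0.354) and Mbp (8.51 ± 1.06), with the other 6 genes at 1.07 or less. In the WT pituitary Mbp (7.08 ± 1.71) and Cnp (7.02 ± 0.612) overlapped, Mal stood at 3.57 ± 0.903 CPM per kb, and the other 6 genes were at 0.797 or less.

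The hypothalamus is where thyroid hormone sets the TRH drive of the axis, and it is the brain tissue of the series, so the genotypes were compared there first. None of the 9 oligodendrocyte genes changed in K146Q mice, and no other gene passed the test either (0 of 15761, 0.0%). Without adjustment 645 genes had a p under 0.05 and none of the 9 was among them. On the recovered reads edgeR also called 0 genes, and DESeq2 called 9, with none of the 9 oligodendrocyte genes among them. The fold changes of the 9 genes ran from -0.11 to 0.052 with a median of -0.033, beside a median of -0.0011 over all genes, and their 95% intervals all lay between -0.26 and 0.23. In whole tissue, fewer cells of a type and less RNA per cell cannot be told apart.

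Among the sheath proteins, Mbp had 3330, 3267 and 2725 CPM in the hypothalamus of WT mice 1, 2 and 43, and 3373, 3323 and 2945 CPM in that of K146Q mice 60, 62 and 83. The same order of mice is kept throughout. The lowest value of each genotype came from the last mouse named, and the genotypes overlapped, with a fold change of 0.052 (SE 0.080, adjusted p = 0.998). Mobp was at 290, 319 and 327 CPM in WT and at 308, 304 and 289 CPM in K146Q mice, with a fold change of -0.053. Mog was at 63.3, 66.5 and 67.4 CPM in WT and at 68.4, 66.0 and 56.6 CPM in K146Q mice, with a fold change of -0.049. These values show a spread among mice of the same genotype that exceeds the distance between the genotypes. For Mag the WT values were 263, 257 and 230 CPM and the K146Q values 277, 274 and 228 CPM, a fold change of 0.049.

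Cnp, the enzyme of the group, was at 417, 427 and 404 CPM in WT and at 420, 413 and 387 CPM in K146Q mice (fold change -0.033). Mal was at 210, 225 and 257 CPM in WT and at 215, 212 and 210 CPM in K146Q mice. Its fold change of -0.11 (SE 0.064) was the furthest from 0 of the 9 with all mice in the fit. It rested on the WT values, since the 3 K146Q mice lay close together at the lower end of the WT range. With 1 mouse left out at a time the fold change of Mal ran from -0.18 to -0.035, and that of Olig1 from -0.076 to -0.056.

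None of the transcription factors of the lineage was called. Olig2, needed to specify precursor cells, was at 48.6, 46.4 and 46.5 CPM in WT and at 48.2, 46.5 and 50.8 CPM in K146Q mice. Sox10, which drives myelin genes, was at 90.8, 79.6 and 68.8 CPM in WT and at 82.9, 79.1 and 73.3 CPM in K146Q mice. Olig1 was at 193, 196 and 198 CPM in WT and at 187, 186 and 188 CPM in K146Q mice, and it was the one gene of the 9 whose genotypes did not overlap, as for 9.15% of all genes tested. Its fold change was -0.065 (SE 0.035, 95% interval -0.14 to 0.013) with an adjusted p of 0.998, and the exact two-sided permutation test gave p = 0.1, the smallest that 3 mice against 3 can give.

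**Figure D2:**
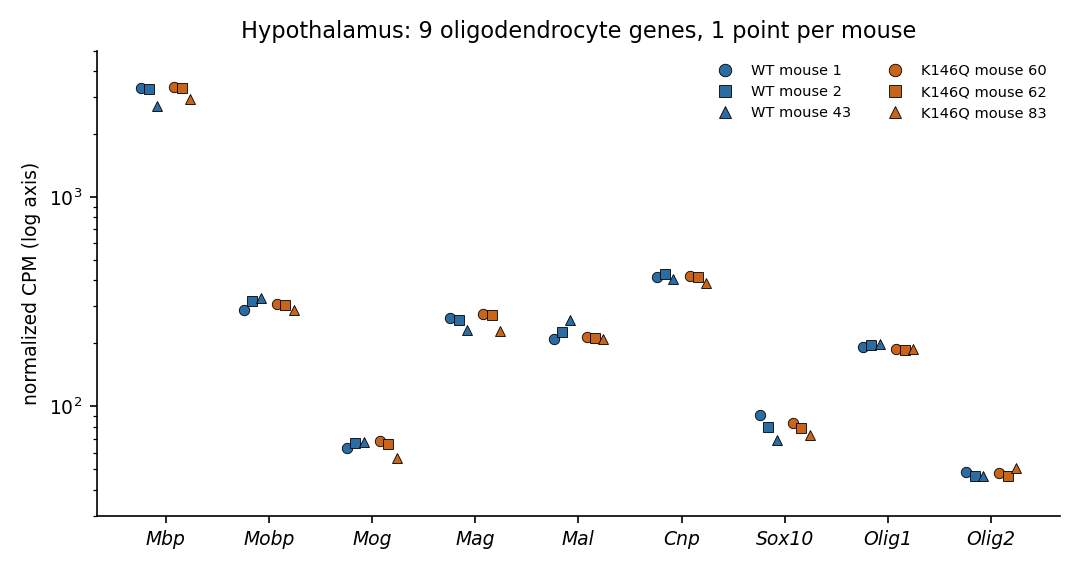
Normalized CPM (log axis) of the 9 genes in the hypothalamus, with 1 point for each of the 3 WT and 3 K146Q mice. For 8 of the 9 genes the genotypes overlap; Olig1 is the exception, with WT at 193 to 198 and K146Q at 186 to 188 CPM, and K146Q mouse 83 is the lowest of the 6 mice for 5 genes.

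How far the mice lay apart depended on the gene. The coefficient of variation over the 6 hypothalamus libraries was lowest for Olig1 (2.65%) and highest for Sox10 (9.68%). The highest library of Mbp, from K146Q mouse 60, exceeded the lowest, from WT mouse 43, by a factor of 1.24. K146Q mouse 83 was lowest for 5 of the 9 genes and yet highest for Olig2. Summed over the 9 genes, the WT mice had 4905, 4885 and 4325 CPM and the K146Q mice 4981, 4905 and 4427 CPM, so the lowest of each genotype lay near each other. Markers of neighbouring brain regions also varied among mice, and limma called 0 of the 9 tested (1 at an unadjusted p under 0.05, median fold change 0.32). Their summed level was 755, 865 and 612 CPM in WT and 774, 965 and 811 CPM in K146Q mice, with Prkcd as the most abundant gene. In K146Q mouse 83 the striatal gene Ppp1r1b was at 70.7 CPM, against 26.5 to 38.9 CPM in the other 5 mice, and Adora2a, also of the striatum, at 13.2 CPM against 1.37 to 2.15 CPM. In K146Q mouse 62 the cortical factor Neurod6 was at 13.2 CPM, against 0.812 to 2.45 CPM in the other 5 mice. Their part in these values was not tested.

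The wider marker lists gave the same counts. Of 39 genes of the mature oligodendrocyte all were tested and 0 were called, with a median fold change of 0.031, and for the 20 genes of precursors and newly committed cells the count was 0 with a median of -0.017. The genes with the smallest unadjusted p in the mature list were Nkx6-2, a transcription factor of the lineage, at 35.5, 38.4 and 37.3 CPM in WT and 43, 39.0 and 44.6 CPM in K146Q mice, and Cryab, a small heat shock protein, with a fold change of -0.14 (adjusted p = 0.998 for both). In the precursor list they were Cspg4, the NG2 proteoglycan, and Lhfpl3, with fold changes of 0.16 and 0.12. Of the 16 genes that supply cholesterol and galactolipids for myelin, 0 were called (median -0.052), and of the 10 tested genes known to respond to thyroid hormone in brain, 0 were called (median 0.11).

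In the pituitary, where the thyrotrope cells that make TSH are the main target of the receptor, 0 of the 9 genes were called, against 9.86% of all genes (1537 of 15589; with library totals computed without the 10 highest genes, 837 genes were higher and 879 lower in place of 991 and 546, which are 6.36% and 3.5% of all genes). Only 6 of the 9 passed the filter of 0.5 CPM in 3 of 6 libraries, and none of these had an unadjusted p under 0.05; edgeR and DESeq2 called none of them. Mog, Olig2 and Sox10 were below it, with at most 4, 7 and 32 reads in a library. The fold changes of the 6 ran from -0.32 to 0.12 with a median of -0.18, beside -0.0088 over all genes. That median was -0.29 without WT mouse 1, -0.28 without K146Q mouse 83, -0.11 without WT mouse 43 and -0.017 without K146Q mouse 62.

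Mbp in the pituitary was at 54.7, 48.8 and 76.3 CPM in WT and at 49.5, 41.1 and 50.8 CPM in K146Q mice, a fold change of -0.32 (SE 0.15, 95% interval -0.67 to 0.022, adjusted p = 0.227). WT mouse 43 stood above all others. Without it the fold change was -0.14 (adjusted p = 0.510). Cnp was at 24.8, 23.7 and 28.0 CPM in WT and at 29.5, 28.0 and 25.8 CPM in K146Q mice. Mal ran from 7.84 to 12.7 CPM in WT and from 8.93 to 10.3 CPM in K146Q mice, and Olig1, Mag and Mobp stayed at 1.82 CPM or less in every library.

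WT mouse 43 had the highest pituitary value for 6 of the 9 genes. It also had Prx, periaxin of peripheral myelin, at 10.1 CPM against 1.10 to 2.40 CPM in the other 5 mice. Sox10 was at 1.82 CPM in this mouse and between 0.153 and 0.515 CPM in the others, and it was the one gene of the 9 whose genotypes did not overlap. It was below the filter and so not among the genes tested, of which 31.0% did not overlap, and the nearest libraries of the genotypes held 6 and 5 reads. The summed level of the 18 Schwann cell genes was 191 CPM in WT mouse 43, 147 and 118 CPM in WT mice 1 and 2, and 114 to 118 CPM in K146Q mice. The part of peripheral nerve in the pituitary values of the 9 genes was not tested.

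The 39 genes of the mature oligodendrocyte list gave 5 calls among 34 tested in the pituitary, 3 higher and 2 lower in K146Q mice, beside 9.86% of all genes called in this tissue (6.36% higher and 3.5% lower), with a median fold change of -0.019 beside -0.0088 over all genes. Nkx6-2 rose by 3.12 on the log2 scale, from 0.178, 0.343 and 0.114 CPM in WT to 8.77, 4.75 and 4.21 CPM in K146Q mice (adjusted p = 0.000166). Tspan2, a tetraspanin, rose by 0.71 and Qdpr, a pteridine reductase, by 0.53, while the tight junction gene Cldn11 fell by 0.61 and Cntn2, an adhesion molecule, fell by 0.85 (adjusted p = 0.0166 and 0.0323). Neither fall was called without K146Q mouse 60 (adjusted p = 0.0630 and 0.135), and that of Cntn2 was also lost without WT mouse 1 (0.0810), WT mouse 2 (0.0575), WT mouse 43 (0.0761) or K146Q mouse 62 (0.118). In the precursor list Lhfpl3 rose by 1.25. Opalin, a gene confined to oligodendrocytes in brain, was at 0.0502 CPM or less in every pituitary library. Of 11 tested genes that respond to thyroid hormone in brain, 1 was higher and 2 lower. None was higher without WT mouse 1, WT mouse 43, K146Q mouse 60 or K146Q mouse 62. None was lower without WT mouse 2 or K146Q mouse 60. The summed level of that list was 325, 341 and 301 CPM in WT and 266, 274 and 291 CPM in K146Q mice. Genes of other cells moved in the same libraries, with 7 of 9 microglia and macrophage genes and 7 of 13 neuron genes higher and 1 neuron gene lower in K146Q mice; without K146Q mouse 60 both counts of higher genes were 4, and without K146Q mouse 62 that of neurons was 4. Their part in the changes of the myelin lists was not tested.

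In the thyroid Cnp and Mal rose and Mbp and Sox10 fell in K146Q mice, so 4 of the 6 genes tested were called, 2 in each direction, beside 37.8% of all genes in this tissue (5739 of 15200, 2992 or 19.7% higher and 2747 or 18.1% lower; with library totals computed without the 10 highest genes, 2496 higher and 3613 lower). That recomputation moved the median of all genes from -0.025 to -0.12 and left the direction and call of these 4 genes as they were. The median fold change of the 6 was 0.48, and 0.29 when all 9 were fitted without the filter. Tg, at 349907, 357296 and 293439 CPM in WT and 83869, 96214 and 130421 CPM in K146Q mice, took a smaller share of the reads in every K146Q library.

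Cnp in the thyroid was at 47.4, 49.3 and 46.9 CPM in WT and at 84.2, 78.5 and 67.5 CPM in K146Q mice. The genotypes did not overlap, and the fold change was 0.67 (SE 0.096, adjusted p = 0.00162). Mal was at 156, 124 and 147 CPM in WT and at 200, 208 and 197 CPM in K146Q mice, a fold change of 0.51 (SE 0.10, adjusted p = 0.00634). Mal in the K146Q thyroid thus came close to the level of the hypothalamus, where it lay between 210 and 257 CPM.

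Mbp fell in the same libraries, from 69.0, 65.0 and 82.2 CPM in WT to 52.3, 42.8 and 54.3 CPM in K146Q mice. Its fold change was -0.53 (SE 0.13, adjusted p = 0.0136), and without K146Q mouse 62 it was -0.42 with an adjusted p of 0.0511. Sox10 fell from 3.41, 3.04 and 3.31 CPM in WT to 0.793, 0.882 and 1.35 CPM in K146Q mice, a fold change of -1.33 (SE 0.20, adjusted p = 0.00197). These Sox10 values rest on 48 to 55 reads per WT library and 15 to 23 per K146Q library. For each of the 4 genes the exact two-sided permutation test gave p = 0.1, the smallest it can give here.

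The other 5 genes were low in the thyroid, at 3.00 CPM or less, and none was called. Mag was at 1.2, 1.39 and 1.5 CPM in WT and 2.08, 3.00 and 1.35 CPM in K146Q mice (fold change 0.46, adjusted p = 0.200). Olig1, with 2 to 31 reads per library, had a fold change of 0.74 (95% interval -0.049 to 1.53, adjusted p = 0.124). With 1 mouse left out at a time the fold change of Olig1 ran from 0.45 to 1.03, and that of Mag from 0.23 to 0.69. Mog, Mobp and Olig2 did not pass the filter, with at most 3, 19 and 4 reads in a library. The genotypes did not overlap for 5 of the 9 genes, namely Mbp, Mog, Cnp, Mal and Sox10, as for 52.3% of all genes tested, and for Mog this rested on 1 to 3 reads.

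**Figure D3:**
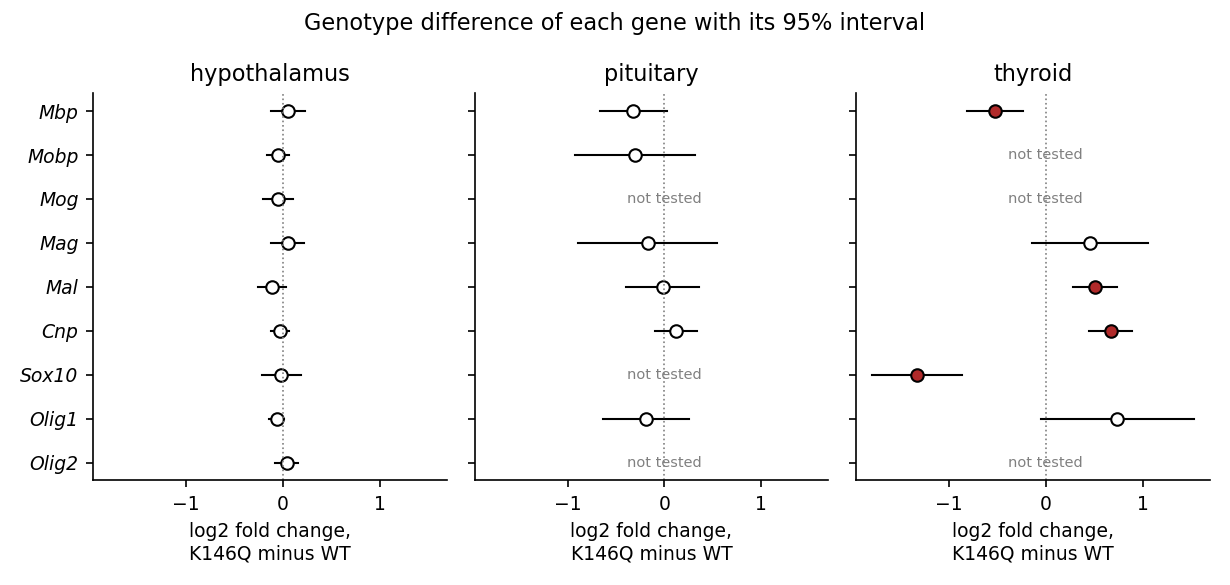
Log2 fold change (K146Q minus WT) of each of the 9 genes in the 3 tissues with its 95% interval from limma; filled points have an adjusted p under 0.05, and genes below the filter are marked as not tested. All hypothalamus intervals lie between -0.26 and 0.23, while in the thyroid Cnp (0.67) and Mal (0.51) lie above 0 and Mbp (-0.53) and Sox10 (-1.33) below.

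Part of the Schwann cell list was lower in the K146Q thyroid, as were Mbp and Sox10. Of 18 genes on that list 17 were tested, of which 7 were lower, 2 higher and 8 not called, beside 18.1% of all genes lower and 19.7% higher, with a median fold change of -0.80 beside -0.025 over all genes. With the filter of 1 CPM in every library 4 were lower and 1 higher. Cdh19, a cadherin of Schwann cells and their precursors, fell by 2.20 on the log2 scale from 3.85, 3.86 and 3.85 CPM to 0.248, 0.353 and 0.821 CPM. S100b fell by 1.09, Scn7a by 1.34 and Gldn, which gathers sodium channels at nodes, by 1.71. The 2 genes that rose were Pmp2, a fatty acid binding protein, by 2.67 and the transcription factor Egr2 by 0.98.

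Prx, named here after its values were seen, did not pass the test, at 14.3, 14.0 and 15.7 CPM in WT and 12, 8.93 and 16.5 CPM in K146Q mice (fold change -0.26, adjusted p = 0.349), and its genotypes overlapped. The summed level of the Schwann cell list was 394, 368 and 395 CPM in WT and 287, 272 and 334 CPM in K146Q mice. Pmp22 was the most abundant gene of the list. For this sum the exact two-sided permutation test gave p = 0.1, the smallest it can give here. Most other lists gave the same p in the thyroid, some with higher and some with lower sums. No gene of the Schwann cell list was at 0 in all thyroid libraries. Opalin was at 0 in all 6, and Mog, which peripheral myelin lacks, was at 0.180 CPM or less. The part of nerve in the fall of Mbp and Sox10 was not tested.

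**Figure D4:**
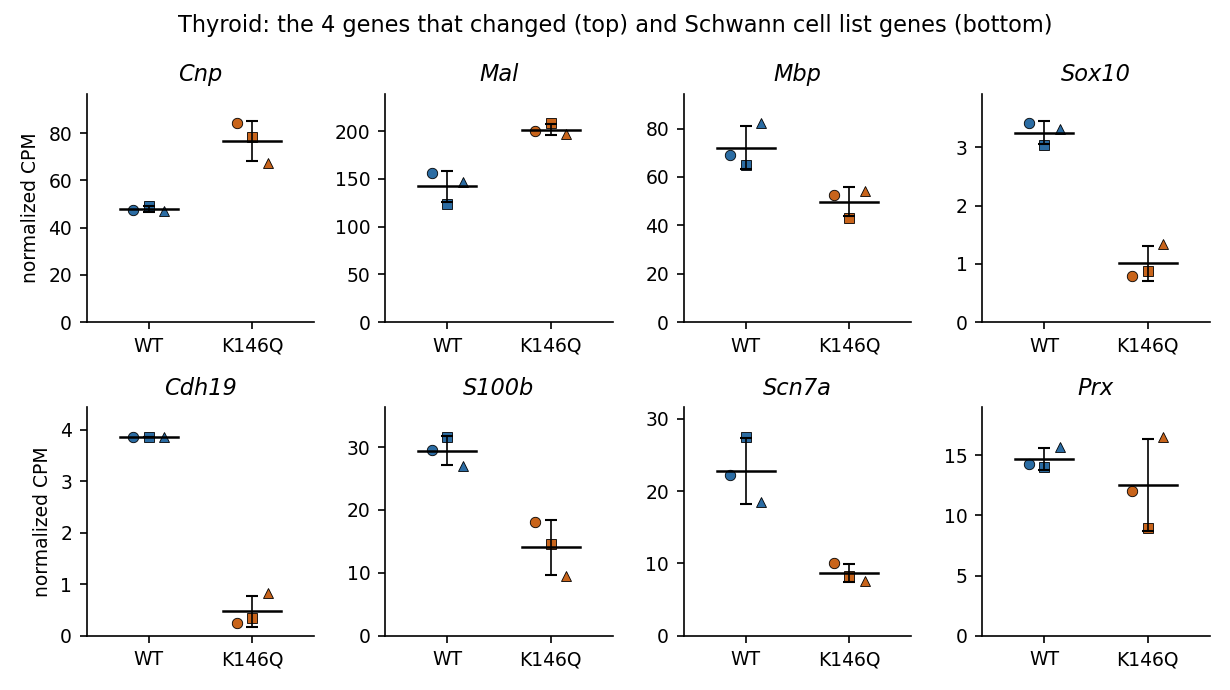
Normalized CPM in the thyroid of each of 3 WT and 3 K146Q mice (points), with mean and SD (bars), for the 4 oligodendrocyte and myelin genes that changed (top) and 4 genes of the Schwann cell list (bottom). Sox10, Cdh19, S100b and Scn7a are lower in all 3 K146Q mice than in any WT mouse, as is Mbp, while the Prx values of the genotypes overlap and Cnp and Mal are higher in all 3 K146Q mice.

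Across the 39 genes of the mature list, 30 were tested in the thyroid, with 8 higher and 12 lower, beside 19.7% and 18.1% of all genes, and a median fold change of -0.21 beside -0.025. Without the 6 of the 9 genes that are on it, 6 were higher and 11 lower among 26. The largest falls were those of Aspa, the enzyme that splits N-acetylaspartate (-2.44), the transcription factor St18 (-2.02), the actin-severing protein Gsn (-1.30) and the apolipoprotein Apod (-1.18). The largest rises were those of Ndrg1 (2.19), the sulfatide-forming enzyme Gal3st1 (1.37), Cntn2 (1.16) and Anln, an actin-binding protein of cell division (1.12). The number lower was 6 without K146Q mouse 62, and Gal3st1 lost its call without that mouse or K146Q mouse 60 (adjusted p = 0.0676 and 0.0681). Gsn, the most abundant gene of the list, went from 1381, 1402 and 1317 CPM in WT to 622, 526 and 517 CPM in K146Q mice, so the summed level of the list, at 2654 to 2665 CPM in WT and 2105 to 2267 CPM in K146Q mice, was led by a gene of many cell types.

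The other lists are read against the same 19.7% of all genes higher and 18.1% lower. The precursor list moved both ways as well, with 7 genes higher and 5 lower among 17 tested and a median of -0.18; without K146Q mouse 62 the number lower was 3. Pdgfra, a receptor of oligodendrocyte precursors and of fibroblasts, fell by 1.29. Tns3 rose by 1.94, Nkx2-2 by 1.54, Enpp6 by 1.41 and Vcan, a matrix proteoglycan, by 1.13. Of the 16 genes of cholesterol and galactolipid supply 7 were higher and 2 lower, among them Elovl7 (-0.78), and 1 was lower without WT mouse 1, WT mouse 43, K146Q mouse 60 or K146Q mouse 62. Of 12 genes that respond to thyroid hormone in brain 2 were higher and 4 lower, with Thrsp down by 3.27, from 162, 164 and 181 CPM to 22.3, 15.1 and 14.6 CPM. Among genes of other cells, 8 of 9 microglia and macrophage genes were higher (summed level 170 to 255 CPM in WT and 508 to 593 CPM in K146Q mice, C1qa the most abundant), as were 2 of 7 endothelial genes, or 1 with any mouse left out. Of 7 thyroid follicular cell genes 3 were higher and 1 lower, with a median of 0.38. Only 1 was higher without WT mouse 1, WT mouse 43 or K146Q mouse 62. The same held with quantile normalization and with library totals computed without the 10 highest genes. Both of these scalings also left 1 endothelial gene higher. Of 10 tested astrocyte and tanycyte genes 3 were higher and 2 lower, or 1 lower without WT mouse 2, K146Q mouse 62 or K146Q mouse 83. Their summed level was 377 to 412 CPM in WT and 951 to 1038 CPM in K146Q mice, with Vim the most abundant. The part of these other cells in the changes was not tested.

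**Figure D5:**
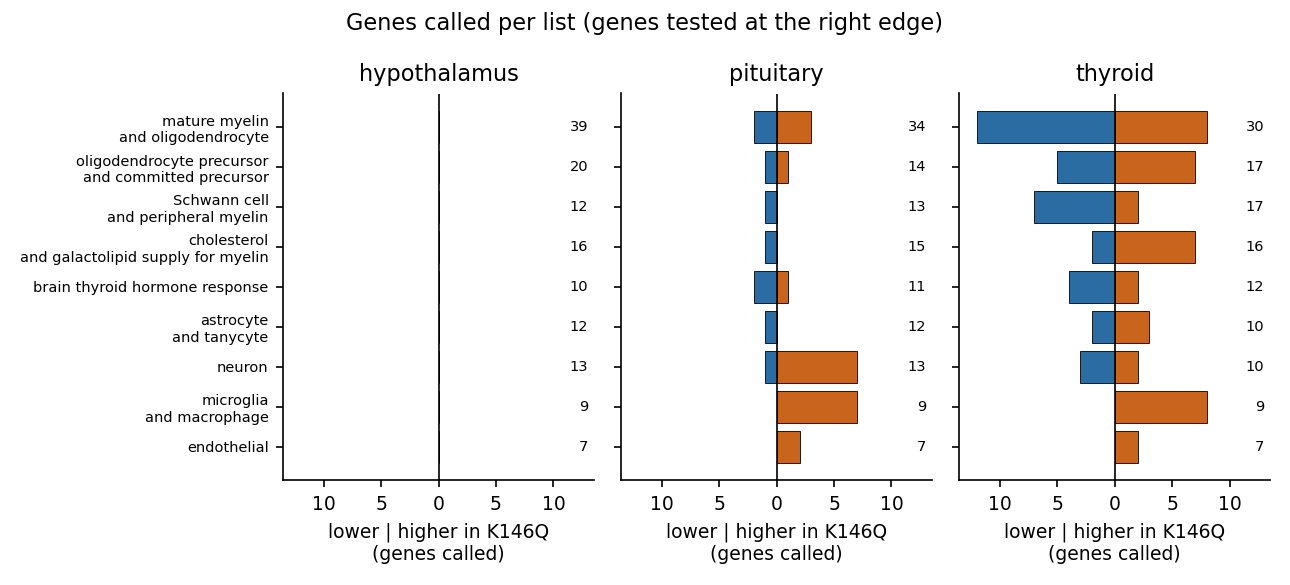
Number of genes called by limma (adjusted p under 0.05) per marker list and tissue, lower in K146Q mice to the left and higher to the right of 0, with the number of genes tested at the right edge. No list has a call in the hypothalamus, while in the thyroid the mature myelin list has 12 genes lower and 8 higher and the Schwann cell list 7 lower and 2 higher.

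The difference between tissues was tested in its own right, by comparing the genotype effects in a fit to all 18 libraries. The thyroid effect differed from the hypothalamus effect for 4 of the 9 genes, beside 30.8% of all genes, and from the pituitary effect for 3, beside 33.8%. Between pituitary and hypothalamus 0 of the 9 differed, beside 3.24% of all genes. Cnp differed in both thyroid comparisons, by 0.70 (95% interval 0.47 to 0.94, adjusted p = 0.000159) against the hypothalamus and by 0.55 (0.31 to 0.79, adjusted p = 0.00116) against the pituitary, and it stayed below the threshold with any of the 6 mice left out. The calls of Mbp, Mal, Sox10 and Olig1 were each lost when at least 1 mouse was left out.

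Across the 18 libraries, the genes whose log2 values were most like the mean of the 9 standardised genes were Mmp17 (Pearson r = 0.997), Lsm11 (0.995), Nts (0.995), Htr2a (0.995) and Fam131b (0.995), with Myrf, the regulator of myelin genes, ninth at 0.993. The 18 points share 3 tissues, and 604 of 15431 genes reached an r over 0.95, so the measure mostly reads hypothalamus against the rest. Mal was the least like the mean of the 9, at 0.681. Over the 6 hypothalamus libraries alone the leading genes were Kank4 (0.986), Serhl (0.973), C77080 (0.972) and Pfkl (0.972), and 25 of 14750 genes passed 0.95. The 9 genes did not move as a unit there, with Cnp at 0.969 and Mog at 0.866 but Mal at 0.159 and Olig2 at -0.674. In both comparisons each of the 9 is itself part of the mean, which raises its r relative to that of other genes.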

How the data were processed

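Hypothalamus, pituitary and thyroid were dissected from 3 WT and 3 K146Q mice, and total RNA was sequenced (Illumina). The submitters' processing notes name bcl2fastq 2.17, Bowtie2 2.1.0, RSEM 1.2.15 and mm10; strandedness and the normalization software are not given in the sources used here. The deposited values are a normalized signal (normalized CPM), scaled by the authors jointly over the 18 libraries, since their average log2 column was identical in the 3 tables for 24027 symbols. Whole reads were recovered from 100.0% of values (tolerance 0.01). The authors' own log2 fold changes, likelihood ratio score, p-value and FDR columns were not used.

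Each tissue was fitted alone with limma 3.58.1 (R 4.3.3) with a variance trend on log2(CPM + 0.5), keeping genes at 0.5 CPM or more in 3 of 6 libraries, with an adjusted p threshold of 0.05. Tissues were compared in 1 fit to all 18 libraries without 27 symbols that were not unique. Samples with the same mouse number were taken as the same animal and used as a block in an alternative fit; same-number deviations correlated between -0.076 and 0.31 over 11933 genes. Replicates differed beyond sampling noise (chi-square per degree of freedom at least 5.87), and p-values measure the spread between mice. On simulated data the tissue fits recovered 97, 100 and 99% of genes changed by 1 on the log2 scale in hypothalamus, pituitary and thyroid. Of the genes called there, 7.08, 2.44 and 3.86% were false calls. The simulation gave all genes the same small spread and changed only genes above a minimum of reads. Recovery was thus not measured for weakly expressed genes or for replicates that vary more. For Tg the trend is extrapolated, so only its values are given.

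Named genes were the 9 genes and, from each marker list, up to 4 called rises and 4 falls with the most abundant gene, or the 2 with the smallest p where none was called; Adora2a, Neurod6, Opalin and Prx were named outside this rule, after their values were seen. The genes and lists were chosen with earlier results of these data known. edgeR 4.0.16 and DESeq2 1.42.0 on recovered reads, other pseudocounts, filters and scalings, and leaving out each mouse were tried. Values of some marker genes are not reported here; list counts include them.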

Additional observations from a re-analysis of the deposited data

Results flagged for a closer look

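The genotype effect differed between thyroid and hypothalamus for 4 of the 9 genes, beside 30.8% of all genes, and between thyroid and pituitary for 3, beside 33.8%, by a test of the difference itself (limma on 18 libraries). Between thyroid and hypothalamus, Cnp differed by 0.70 (adjusted p = 0.000159) and kept its call with any mouse left out. Mal differed by 0.62 (adjusted p = 0.0138; 0.0750 without K146Q mouse 62) and Sox10 by -1.32 (adjusted p = 0.0163; 0.0862 without K146Q mouse 60 and 0.0828 without K146Q mouse 62). Mbp differed by -0.58 (adjusted p = 0.0397), and the adjusted p was 0.0573 without WT mouse 1, 0.0820 without WT mouse 43, 0.103 without K146Q mouse 60 and 0.182 without K146Q mouse 62.

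Between thyroid and pituitary, Cnp differed by 0.55 (adjusted p = 0.00116), again with any mouse left out. Mal differed by 0.53 (adjusted p = 0.0315), and the adjusted p was 0.0559 without WT mouse 43, 0.0649 without K146Q mouse 60, 0.119 without K146Q mouse 62 and 0.106 without K146Q mouse 83. Olig1, which has at most 31 reads in a thyroid library, differed by 0.93 (adjusted p = 0.0349), and the adjusted p was 0.0856 without WT mouse 1, 0.132 without WT mouse 2, 0.104 without K146Q mouse 60 and 0.146 without K146Q mouse 62.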

How the results depend on the processing

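The 4 thyroid calls kept their direction under every alternative run; Mbp lost its call without K146Q mouse 62 and Sox10 was removed by a filter of 1 CPM in every library. That filter left 3, 3 and 2 genes differing between WT tissues in place of 9, 9 and 5, because fewer genes were tested. DESeq2 called 9 genes in the hypothalamus, where limma called 0. With totals computed without the 10 highest genes, the WT thyroid minus pituitary difference of Mbp turned from 0.28 to -0.0047, and the cause was not tested. With no filter or no variance trend the Mbp difference between thyroid and hypothalamus effects had an adjusted p of 0.0544 and 0.0592, and with quantile normalization the Mal difference between thyroid and pituitary effects had 0.0647.

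With mouse number as a replicate block, 4 and 3 genes differed in their thyroid effects, as without it, and the WT thyroid minus pituitary difference of Mobp stayed at -0.61 but lost its call (adjusted p = 0.0550), as it did with no filter (0.0529) and with quantile normalization (0.276).

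Leaving out 1 mouse at a time gave 0 to 6 genes called in the hypothalamus (6 without K146Q mouse 83), 625 to 1345 in the pituitary (625 without K146Q mouse 60) and 3602 to 5106 in the thyroid (3602 without K146Q mouse 62), and 1 to 4 genes with differing effects in both thyroid comparisons. Directions that were not called turned. In the hypothalamus the fold change ran from -0.040 to 0.11 for Mbp, -0.10 to 0.032 for Mog, -0.0088 to 0.14 for Mag, -0.056 to 0.0032 for Cnp and -0.12 to 0.081 for Sox10. In the pituitary it ran from -0.37 to 0.040 for Mag and -0.16 to 0.17 for Mal. The WT thyroid minus pituitary difference of Mog ran from -0.034 to 0.18. The difference of genotype effects between pituitary and hypothalamus ran from -0.24 to 0.083 for Mog, -0.66 to 0.031 for Mag, -0.035 to 0.20 for Mal, -0.21 to 0.050 for Olig1 and -0.052 to 0.25 for Olig2. Between thyroid and hypothalamus it ran from -0.19 to 0.37 for Mobp, and between thyroid and pituitary from -0.19 to 0.055 for Mog, -0.078 to 0.89 for Mobp and -0.090 to 0.34 for Olig2. With 3 mice a group, and few reads for Mog, Mobp, Olig1, Olig2 and Sox10 outside the brain, small differences were not detectable there.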
